A study of Mus musculus with 23 samples.

Results

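Endoplasmic reticulum chaperones and unfolded protein response genes are followed here as a set of 10, namely Hspa5, Hsp90b1, Calr, Dnajb9, Sdf2l1, Creld2, Pdia4, Pdia6, Herpud1 and Xbp1, out of 20145 gene symbols named on the array. The genes were chosen by name, and every non-control probe assigned to one of their RefSeq transcripts was taken, which gave 12 probes. The samples were 23 cultures of TM4, an immortalized mouse Sertoli cell line, each hybridised to its own 1-colour Agilent array. All cultures had 1% DMSO as the vehicle for 48 hours, either alone (DMSO, n = 4) or with 100 µM of mono(2-ethylhexyl) phthalate (MEHP, n = 4), diisononyl cyclohexane-1,2-dicarboxylate (DINCH, n = 4), dioctyl maleate (DOM, n = 4), 1,4-butanediol dibenzoate (BDB, n = 4) or dioctyl succinate (DOS, n = 3). MEHP is the active metabolite of a phthalate plasticizer, and the other compounds are alternative plasticizers, so that the comparisons ask whether the phthalate metabolite and the alternatives change the same or different genes of the cell.

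The endoplasmic reticulum folds and modifies proteins that are secreted or inserted into membranes. When unfolded proteins build up there, the sensors IRE1 (encoded by Ern1), PERK (Eif2ak3) and ATF6 start the unfolded protein response, in which spliced XBP1 and cleaved ATF6 drive transcription of chaperones and degradation factors, while PERK lowers translation and favours the transcription factor ATF4. Sertoli cells, which nurse germ cells in the seminiferous tubule, secrete many glycoproteins through this compartment.

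The best known DNA element of the response is the endoplasmic reticulum stress response element (ERSE), which reads CCAAT, then 9 bases of any kind, then CCACG. A shorter form, ERSE-II, reads ATTGG, any base, then CCACG. Both were searched on either strand in the 250 bases before the annotated start of each gene, in RefSeq promoter sequences of build GRCm38.p6, which held a window for all 10 genes. ERSE letters stood before 5 of the 10 genes and ERSE-II before 1 other, whereas 0.143% of 32851 promoters held either. The genes were chosen by name as genes of the response that this element belongs to, so these shares are a description and not a test. The windows of Hspa5 and Herpud1 are printed because these were the members whose mRNA fell, at chr2:34771840-34772089 on the plus strand and chr8:94386179-94386428 on the plus strand, with the matched letters in capitals:
Hspa5: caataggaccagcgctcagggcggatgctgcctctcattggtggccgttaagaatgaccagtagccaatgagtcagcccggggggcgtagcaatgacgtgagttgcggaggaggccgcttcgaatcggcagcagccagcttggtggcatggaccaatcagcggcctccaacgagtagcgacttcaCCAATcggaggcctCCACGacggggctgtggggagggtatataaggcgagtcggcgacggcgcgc
Herpud1: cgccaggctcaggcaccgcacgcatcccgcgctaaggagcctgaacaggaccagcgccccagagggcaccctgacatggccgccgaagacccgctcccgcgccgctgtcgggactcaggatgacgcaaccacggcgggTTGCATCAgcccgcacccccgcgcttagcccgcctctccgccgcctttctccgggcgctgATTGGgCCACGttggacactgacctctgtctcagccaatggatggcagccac

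In Hspa5 the capitals mark an ERSE that starts 65 bases before the gene start. In Herpud1 they mark an ERSE-II that starts 52 bases before the gene start and, 112 bases before it, TTGCATCA, the reverse complement of TGATGCAA, which are letters of an ATF4-type site. TGATGCAA was held by 0.791% of all promoters on one strand or the other, and Herpud1 was the only member with it. The core of the unfolded protein response element, TGACGTGG, was in the window of 0 of the 10 members and in 0.563% of all promoters. These are matches of letters, and binding was not measured.

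The matched stretches of the other members with an ERSE are given for comparison with Hspa5, each read on the strand of its gene, from windows at chr10:86705445-86705694 (minus strand), chr12:17266339-17266588 (plus strand), chr8:84846932-84847181 (minus strand) and chr15:88819396-88819645 (plus strand):
Hsp90b1, first: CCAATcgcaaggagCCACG
Hsp90b1, second: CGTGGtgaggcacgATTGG
Pdia6: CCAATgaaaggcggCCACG
Calr: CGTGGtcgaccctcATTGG
Creld2: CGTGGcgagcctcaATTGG

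The second Hsp90b1 match and those of Calr and Creld2 lie in the reverse orientation. The windows of Xbp1, Dnajb9, Sdf2l1 and Pdia4 held none of the letters searched.

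**Figure D1:**
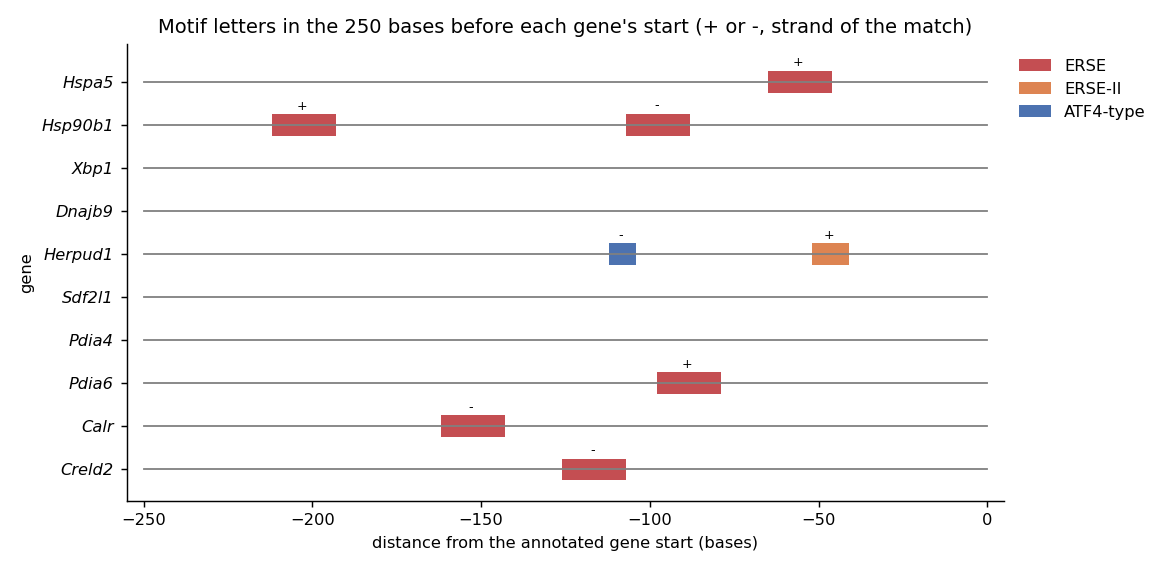
Position of motif letters in the 250 bases before the annotated start of each of the 10 genes; the x axis is the distance from the start in bases, each grey line is 1 window, and each coloured block is a match on the strand written above it. ERSE blocks stand in 5 windows, an ERSE-II and an ATF4-type block in that of Herpud1, and 4 windows are empty.

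Levels are given as the log2 of the deposited signal relative to the 75th percentile of the same array, so that a level of 0 is the 75th percentile. They can be set against each other between arrays but not between genes, since each probe has its own brightness. Each compound was compared with DMSO by limma, with Benjamini-Hochberg adjustment over all probes tested, and a gene was called when its adjusted p was under 0.05 and its change over 1.5-fold. The verbs rose and fell are kept for called genes. The 12 probes were well above background on all 23 arrays, and all 10 genes entered every comparison. Where a gene had more than 1 probe, the brightest was used.

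On each array 43.4% to 52.2% of spots passed the scanner software's background limit, 0 spots were saturated, and each array correlated with the mean of the others of its group at r = 0.992 or more over 11158 genes. Of 19 Sertoli cell markers, 11 were above background on all 4 DMSO arrays, among them Sox9 and Gata4, while Wt1 and Fshr were above background on 0 of 23 arrays and Amh on 1. Of 7 Leydig cell markers, Cyp17a1 was above background on all 23 arrays, Star on 12, and Cyp11a1, Hsd3b1, Hsd3b6, Lhcgr and Hsd17b3 on 0. Of 5 macrophage markers, Csf1r and Itgam were above background on all 23 and Adgre1, Ptprc and Lyz2 on 0. Of 6 peritubular myoid cell markers, Acta2, Tagln and Cnn1 were above background on all 23, Des on 4, and Myh11 and Myocd on 0. Of 8 germ cell markers, Prm1 was above background on all 23, Tnp1 on 20, Sycp3 and Dppa3 on 4 each, Zbtb16 on 1, and Ddx4, Dazl and Stra8 on 0. In whole cultures, fewer producing cells and less mRNA per cell cannot be told apart. The arrays lay on 3 slides. DOM, DOS and DMSO shared slide rows, and the MEHP, DINCH and BDB arrays were in the other rows. Row and compound therefore cannot be told apart where MEHP, DINCH or BDB is compared with DMSO, DOM or DOS.

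**Figure D2:**
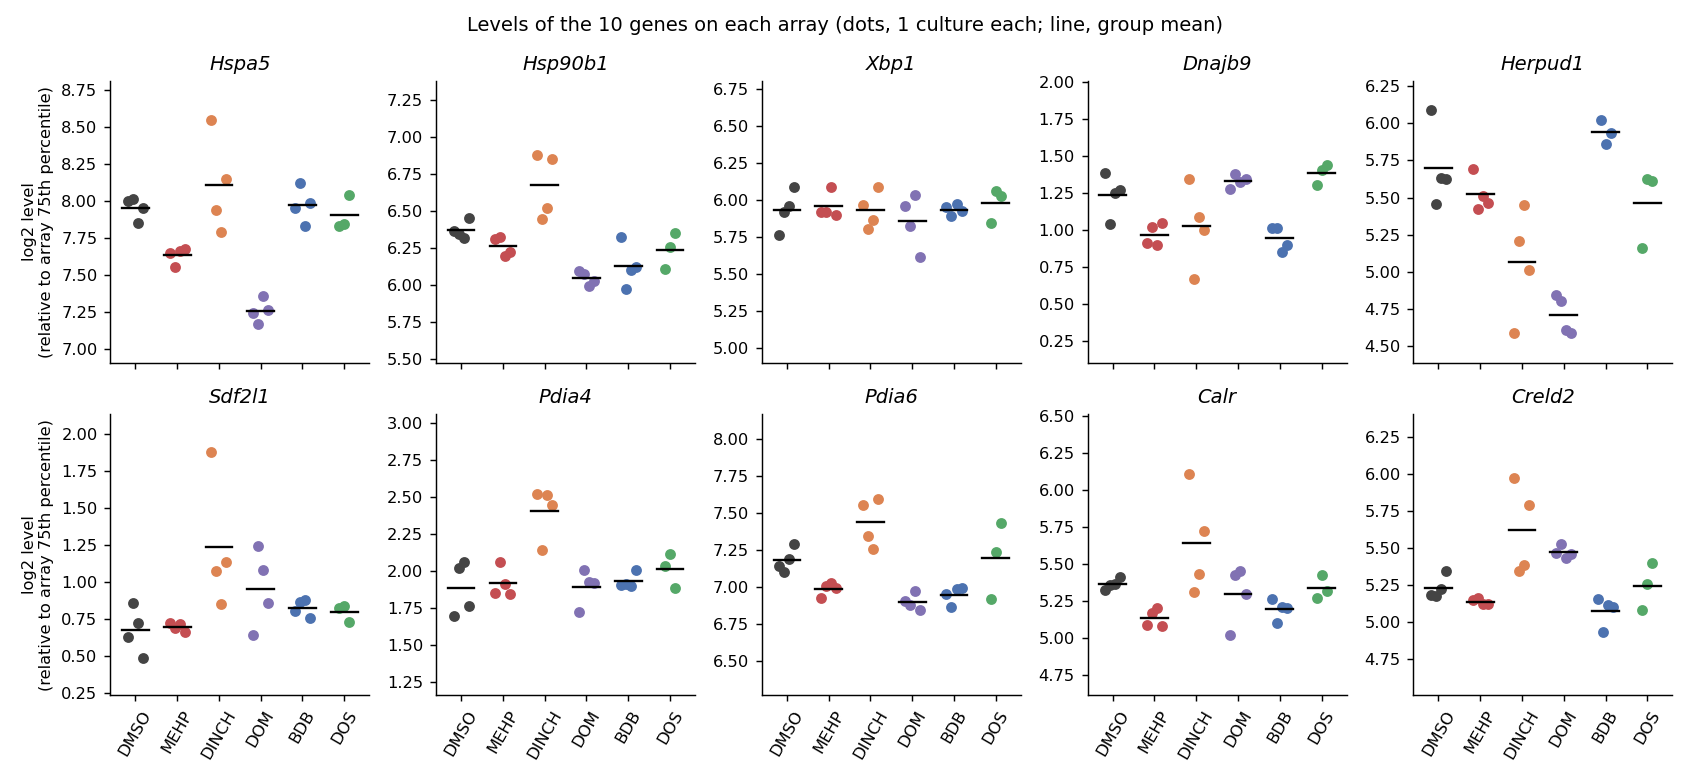
Levels of the 10 genes; the y axis is the log2 level relative to the 75th percentile of the array and spans the same range of log2 units in every panel, dots are arrays and lines group means. The DOM dots lie below all DMSO dots for Hspa5, Hsp90b1, Herpud1 and Pdia6, and the DINCH dots lie above all DMSO dots for Pdia4 and Creld2.

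Under DOM the mRNA of Hspa5 and Herpud1 fell. In all, 2 of the 10 genes were called, both lower, where 9.76% of 12001 genes were called lower and 18.6% in either direction. The median change of the 10 was -0.07, against -0.03 over all genes tested. In 4 members every DOM array was below every DMSO array and in 1 every DOM array was above, where 20.5% and 19% of all genes were so separated. The central chaperone and the degradation factor therefore changed while most genes of the set did not pass the test, and the calls were about as frequent as in all genes.

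Hspa5 encodes BiP, the HSP70 chaperone of the endoplasmic reticulum lumen, which holds the sensors inactive when it is free. Its log2 level was 8.00, 8.01, 7.85 and 7.95 on the DMSO arrays and 7.25, 7.17, 7.36 and 7.27 on the DOM arrays. Every DOM array was below every DMSO array, and the gap between the groups was wider than the spread within either. The log2 change was -0.69 with an SE of 0.09 (95% interval -0.90 to -0.49, limma adjusted p = 0.000757), a 1.62-fold lower signal. Within the 3 slides the difference was -0.79, -0.58 and -0.68. With quantile normalization the change was -0.45 (adjusted p = 0.00771), which is under 1.5-fold and ends the call.

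Herpud1 encodes a membrane protein of the degradation complex that removes misfolded proteins from the endoplasmic reticulum. Its log2 level was 6.09, 5.45, 5.63 and 5.62 on the DMSO arrays and 4.84, 4.80, 4.61 and 4.58 on the DOM arrays. The groups did not overlap, although DMSO replicate 1 stood above the other DMSO arrays. The log2 change was -0.99 with an SE of 0.14 (95% interval -1.32 to -0.66, limma adjusted p = 0.00136), a 1.99-fold lower signal, and -0.86 without DMSO replicate 1. Within slides it was -1.27, -0.94 and -1.04.

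Hsp90b1, which encodes the HSP90 chaperone of the lumen (GRP94), had log2 levels of 6.37, 6.35, 6.32 and 6.45 in DMSO and 6.10, 6.08, 5.99 and 6.03 in DOM. The groups were separate but close. The change of -0.32 (SE 0.08, limma adjusted p = 0.0176) was under 1.5-fold, as was that of the disulfide isomerase Pdia6 (-0.28, SE 0.09, limma adjusted p = 0.0381). With quantile normalization these changes were -0.13 and -0.06 with adjusted p of 0.280 and 0.721. A dimmer Pdia6 probe gave -0.14 under DOM (SE 0.11, limma adjusted p = 0.370), and its DOM and DMSO arrays overlapped. Creld2, an endoplasmic reticulum protein with EGF-like repeats that is known to be induced when folding fails, went the other way: its levels were 5.46, 5.53, 5.43 and 5.46 in DOM, all above the 5.18, 5.18, 5.22 and 5.35 of DMSO, with a change of 0.24 (SE 0.09, limma adjusted p = 0.0625). The remaining members had changes between -0.07 (Xbp1 and Calr) and 0.28 (Sdf2l1, limma adjusted p = 0.173).

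DOS, the succinate diester with the same octyl groups as DOM, gave 0 called members by limma (0% of 11933 genes were called), and 0 of the 10 had an unadjusted p under 0.05. Over all genes 2 were called under DOS with normexp background correction and 7 without DOS replicate 3. The changes lay between -0.23 (Herpud1) and 0.15 (Dnajb9). For Hspa5 the change was -0.05 with a 95% interval of -0.28 to 0.18, and the 3 DOS levels of 7.83, 7.84 and 8.04 overlapped those of DMSO. For Herpud1 the interval was -0.65 to 0.18, and the DOS levels were 5.16, 5.63 and 5.61, of which replicate 1 was the low one. This interval reaches past a 1.5-fold fall.

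Set directly against DOS at the same dose and time, DOM again had 2 members lower and 0 higher, where 7.46% of 11928 genes were called lower and 13.5% in either direction. Hspa5 differed by -0.65 (SE 0.11, 95% interval -0.89 to -0.40, limma adjusted p = 0.00655) and Herpud1 by -0.76 (SE 0.15, 95% interval -1.09 to -0.42, limma adjusted p = 0.0113). All DOM arrays were below all DOS arrays for both genes. Maleate and succinate differ in the core of the diester, which has a double bond in maleate and a single bond in succinate. With DOS replicate 4 left out, 0 of the members were called, at -0.58 for Hspa5 and -0.68 for Herpud1, nor was either called when dim probes were not filtered. Hspa5 alone was not called with quantile (-0.38) or normexp (-0.53) normalization. For Xbp1, Dnajb9, Sdf2l1, Pdia4 and Calr the difference between DOM and DOS lay between -0.12 and 0.15, with 95% intervals that included 0 and reached from -0.42 to 0.50. The other uncalled differences were those of Pdia6 (-0.30, 95% interval -0.60 to 0.01), Creld2 (0.23, 95% interval -0.03 to 0.48) and Hsp90b1 (-0.19, 95% interval -0.43 to 0.05). For Creld2 every DOM array was above every DOS array and for Hsp90b1 every one was below, while for Pdia6 the groups overlapped. In all, 3 of the 10 members were so separated on the lower side and 1 on the higher side. Of all genes, 20.8% and 17.8% were, so this separation was about as frequent as in all genes.

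**Figure D3:**
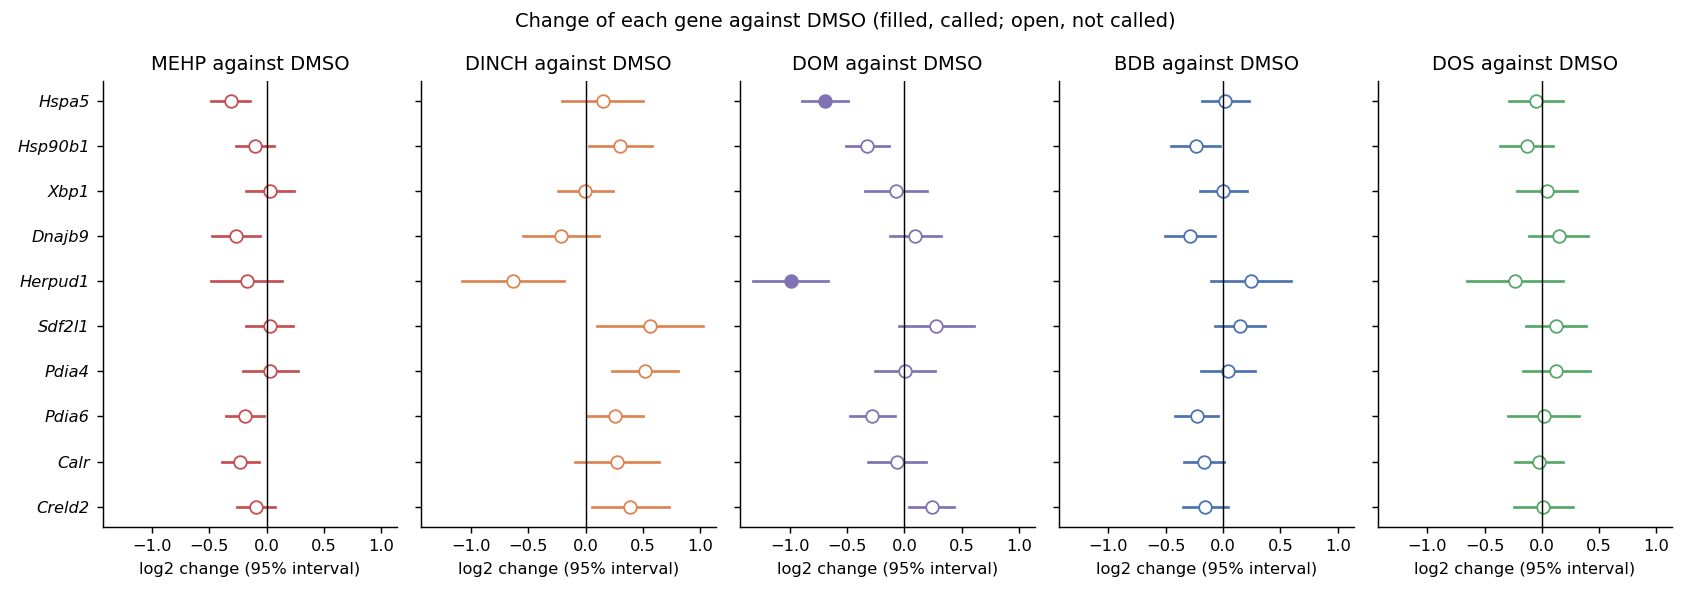
Log2 change of each of the 10 genes against DMSO for each compound; points are limma estimates, lines their 95% intervals, filled points are called (adjusted p under 0.05 and over 1.5-fold) and open points are not. The 2 filled points are Hspa5 and Herpud1 under DOM, and 7 of 10 points lie above 0 under DINCH.

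Under DINCH, 7 chaperone and isomerase mRNAs stood above DMSO, Herpud1 and the co-chaperone Dnajb9 below it and Xbp1 close to it, all without a call. By limma 0 of the 10 members were called, where 6.97% of 11913 genes were, 5 had an unadjusted p under 0.05 with a higher and 1 with a lower level (15.1% and 15.7% of all genes), and the median change of the 10 was 0.27 against 0.00 over all genes. Of the 10 genes, 7 had a positive change, against 49.9% of all genes.

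Pdia4, a disulfide isomerase of the lumen, had the smallest adjusted p under DINCH. Its levels were 2.52, 2.14, 2.51 and 2.45 in DINCH and 1.70, 2.02, 2.06 and 1.76 in DMSO, so the groups did not overlap. The change of 0.52 (SE 0.13, limma adjusted p = 0.0358) was 1.43-fold and stayed under the 1.5-fold limit. Without DINCH replicate 2, the lowest of the group, it was 0.61 and was called.

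Sdf2l1, a partner of HSP40 co-chaperones in the lumen, had levels of 1.88, 1.07, 0.85 and 1.13 in DINCH and 0.63, 0.86, 0.73 and 0.49 in DMSO. The groups overlapped slightly, and DINCH replicate 1 stood far above the rest. The change was 0.56 (SE 0.21, limma adjusted p = 0.118), and 0.35 without that array. The other positive changes were those of Creld2 (0.39, SE 0.15), Hsp90b1 (0.30, SE 0.12), Calr (0.28, SE 0.16), Pdia6 (0.26, SE 0.11) and Hspa5 (0.15, SE 0.16), with limma adjusted p from 0.134 to 0.599. Without DINCH replicate 1 the change of Hspa5 was 0.0035 and that of Calr 0.12. A dimmer Pdia6 probe gave -0.06 (SE 0.11). Dnajb9 was at -0.21 (SE 0.15, limma adjusted p = 0.419), with -0.07 (SE 0.17) from its dimmer probe, and at -0.09 without DINCH replicate 2.

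DINCH replicate 1 was the highest of the 4 DINCH arrays for 7 of the 10 members and the lowest for Herpud1. Its level was 8.55 for Hspa5, with 7.94, 7.79 and 8.15 on the others, and 6.11 for Calr, with 5.31, 5.44 and 5.72 on the others. Without it the median change of the members was 0.17, and 7 of 10 stayed above 0. It had the lowest 75th percentile of the 23 arrays, a signal of 205 against up to 351, and the part of this in the result was not tested.

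Herpud1 had levels of 4.59, 5.21, 5.45 and 5.01 under DINCH. All were below DMSO, narrowly for replicate 3, and replicate 1 was lowest. The change was -0.63 (SE 0.20, 95% interval -1.08 to -0.19, limma adjusted p = 0.0732), and -0.48 without replicate 1. The gene was called lower when all 6 groups were fitted together, with a variance trend, with normexp background correction, or without DINCH replicate 3. Within slides the difference was -1.50, -0.34 and -0.39, so its size rested on the first slide while the sign was the same on each. The first slide held 1 DINCH and 1 DMSO array. Its DMSO array, replicate 1, was the highest of the DMSO arrays, at 6.09.

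MEHP gave small negative values for most members. By limma 0 of the 10 were called, where 1.53% of 11947 genes were, and 4 had an unadjusted p under 0.05, all lower, against 8.85% of all genes. Hspa5 was 7.65, 7.56, 7.66 and 7.68 under MEHP, below all DMSO arrays, with a change of -0.32 (SE 0.07, 95% interval -0.48 to -0.15, limma adjusted p = 0.0690). The MEHP arrays lay between those of DOM and DMSO without overlap. Calr, the lectin chaperone and calcium store calreticulin, had a change of -0.23 (SE 0.07), and Dnajb9, an HSP40 co-chaperone of BiP known as ERdj4, of -0.27 (SE 0.09), with limma adjusted p of 0.142 and 0.187. A dimmer Dnajb9 probe gave -0.71 (SE 0.21, limma adjusted p = 0.136), with MEHP replicate 3 the lowest array. Pdia6 and Creld2 also had every MEHP array below every DMSO array, at -0.19 and -0.09, so that 4 members did not overlap on the lower side, where 6.63% of all genes did so.

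BDB gave 0 called members by limma, as it gave 0 called genes of 11965 (0%), and 3 had an unadjusted p under 0.05, all lower, against 10.8% of all genes. Over all genes the count under BDB stayed 0 with quantile normalization. It was 38 with normexp background correction, 67 with a variance trend, 79 with slide as a block and 94 with all 6 groups in 1 fit. Hspa5 was 7.95, 8.12, 7.83 and 7.99, which overlapped DMSO, with a change of 0.02 and a 95% interval of -0.19 to 0.22. Dnajb9 changed by -0.29 (SE 0.10), Hsp90b1 by -0.24 (SE 0.10) and Pdia6 by -0.23 (SE 0.08), with limma adjusted p from 0.210 to 0.288. In 4 members every BDB array was below every DMSO array, where 8.66% of all genes were. Herpud1 was 6.03, 5.86 and 5.93 on the 3 BDB arrays measured, since the spot of BDB replicate 1 was flagged by the scanner software and left out. Its change was 0.24 (95% interval -0.11 to 0.59).

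Xbp1, the transcription factor whose mRNA IRE1 splices, was called under 0 of the compounds. Its changes lay between -0.07 (DOM) and 0.05 (DOS), and their 95% intervals reached from -0.34 to 0.31. The probe reads total Xbp1 mRNA, and splicing was not measured.

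All 10 pairs of compounds were also compared directly, in a limma fit of the 23 arrays with adjustment over all probes and the 10 pairs. Where MEHP, DINCH or BDB was set against DOM or DOS, slide row and compound cannot be told apart. Of the 100 differences between compounds for the 10 members, 8 were called, where 9.8% of all such gene and pair combinations were; with quantile normalization 4 were called. A further 28 had an adjusted p under 0.05 but were under 1.5-fold, so that 36 of the 100 passed the adjusted p, where 22.4% of all combinations did. Hspa5 and Herpud1 held 7 of the 8 calls. For Hspa5, DOM was below DINCH by 0.85, and the DINCH minus DOM interval was 0.60 to 1.09 (limma adjusted p = 2.47e-05). DOM minus BDB was -0.71 (limma adjusted p = 0.00016) and DOM minus DOS -0.65 (limma adjusted p = 0.000893), and DOM had the lowest mean of the 5. MEHP minus DOM was 0.38 (95% interval 0.14 to 0.62), and BDB minus DOS was 0.07 (95% interval -0.19 to 0.33).

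For Herpud1, the highest and lowest compounds were BDB and DOM. DOM minus BDB was -1.23 (SE 0.17, limma adjusted p = 3.91e-05), a 2.35-fold difference. MEHP minus DOM was 0.81 (limma adjusted p = 0.0011) and DINCH minus BDB was -0.88 (limma adjusted p = 0.00112). DINCH minus DOM was 0.36 (95% interval 0.02 to 0.69, limma adjusted p = 0.137), which did not pass the test. In order of group means Herpud1 thus ran from BDB through DMSO, MEHP, DOS and DINCH to DOM, and no neighbours in this order differed past the test. MEHP and DOS differed by 0.06 (95% interval -0.30 to 0.42).

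For Hsp90b1, DINCH stood above DOM by 0.63 (SE 0.10, limma adjusted p = 8.37e-05), the remaining call. MEHP and DINCH, a phthalate monoester and a cyclohexane diester, were called for 0 of the 10 members, where 3.1% of 12166 genes were, while 7 of the 10 had an adjusted p under 0.05, where 11.4% of all genes did, and the median MEHP minus DINCH difference was -0.46. Calr is an example, at -0.51 (95% interval -0.77 to -0.25, limma adjusted p = 0.00644). The fit used 1 spread for all groups, while the SD of Calr was 0.35 in DINCH and 0.06 in MEHP (n = 4 each). DINCH replicate 1 was the highest DINCH array for 7 of the 10 members, at 6.11 for Calr. The pairs were not refitted without it. BDB and DOS were called for 0 of the 10, where 1.78% of all genes were, and 1 had an adjusted p under 0.05, where 7.37% of all genes did, namely Dnajb9 at -0.44 (95% interval -0.67 to -0.20).

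**Figure D4:**
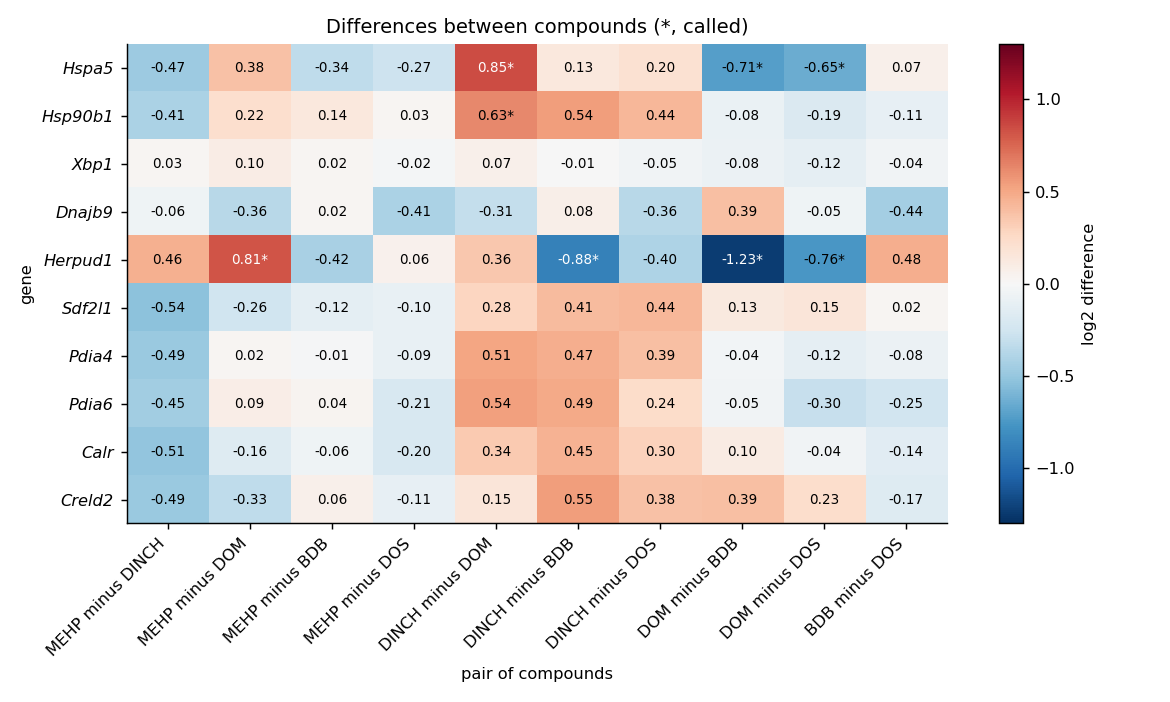
Log2 difference between compounds for each of the 10 genes and each of the 10 pairs, written in each cell as the first minus the second compound; red is higher in the first, blue lower, and an asterisk marks the 8 called differences. Called cells are in the rows of Hspa5, Hsp90b1 and Herpud1.

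The members did not move as 1 block. Over the 23 arrays the 45 pairs of members had a median Pearson r of 0.33, from -0.73 (Herpud1 with Creld2) to 0.88 (Hsp90b1 with Pdia6), and 33 were above 0. These are descriptions, since the points share groups, slides and scaling. Among 11149 genes with a median r of 0.08, those most like the mean of the 10 members were Gbp3 and Coq6 (r = 0.87 each). Snord123 (0.86), Oasl2 (0.84) and Zswim7 (0.84) followed. With group means removed, r was 0.54, 0.76, 0.69, 0.56 and 0.68 in this order. The mean of the members, each centred on its own mean, was highest on DINCH replicate 1, at 0.42.

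The wider pathway was read from 7 lists of 192 genes on the array that held none of the members. DINCH had 11 of 184 tested genes higher and 5 lower (8.70%), DOM had 9 of 185 higher and 7 lower (8.65%), and MEHP had 1 of 184 higher. The shares for DINCH and DOM can be read beside the 6.97% and 18.6% of all genes. For BDB and DOS limma called 0. At an unadjusted p under 0.05, 5 of the 184 genes were higher and 39 lower under BDB, where 5.51% and 10.8% of all genes were, and 3 were higher and 5 lower under DOS, where 3.44% and 2.9% were. By the same limit 10 were higher and 31 lower under MEHP (10% and 8.85% of all genes), 36 and 25 under DINCH (15.1% and 15.7%), and 39 and 27 of 185 under DOM (23% and 24.3%).

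The sensors did not share a direction. Ern1, which encodes IRE1, fell under DINCH by 0.65 on the log2 scale (mean level 0.53 ± 0.31 (SD, n = 4) against 1.19 ± 0.17 (SD, n = 4), limma adjusted p = 0.0355). Eif2ak3, which encodes PERK, was higher under DINCH by 0.45 (limma adjusted p = 0.0421) and under DOM by 0.40 (limma adjusted p = 0.00945), both under 1.5-fold. Atf6 was at -0.44 under DINCH and -0.36 under DOM, with limma adjusted p of 0.0812 and 0.113. Of the same list, Creb3l4, a membrane-bound transcription factor related to ATF6, rose under DOM (1.19), DINCH (0.98) and MEHP (0.59), and Tmem33, a membrane protein of the endoplasmic reticulum, rose under DOM (0.60).

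Of the 18 genes of the PERK arm and its stress outputs, 6 fell and 0 rose under DOM, where 9.76% of all genes fell. The other 12 were not called, 4 of the 18 had a change above 0, and the median was -0.46 against -0.03 over all genes. Under DINCH 3 fell and 0 rose, where 3.17% of all genes fell, with a median of -0.26. Trib3, a pseudokinase that ATF4 and CHOP induce, fell under DOM by 1.21 (SE 0.15, limma adjusted p = 0.000744), from 7.26 ± 0.18 (SD, n = 4) to 6.05 ± 0.28 (SD, n = 4), and under DINCH by 0.68 (SE 0.16). Atf3, a stress-induced transcription factor, fell under DOM by 1.24 (SE 0.23), and Ppp1r15a, the GADD34 subunit that restores translation, by 1.02 (SE 0.22). Sesn2, a stress-induced regulator of growth signalling, fell under DINCH by 0.73 (SE 0.13). The activity of PERK was not measured.

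Atf4 itself, at -0.58 under DOM (SE 0.10, limma adjusted p = 0.00283), was 1.49-fold lower and just under the limit for a call. Its mean was 8.83 ± 0.11 (SD, n = 4) in DOM against 9.41 ± 0.10 (SD, n = 4) in DMSO, without overlap. Ddit3, which encodes CHOP, fell under DOM by 0.67 (SE 0.18, limma adjusted p = 0.0212) and stood 0.90 above DMSO under BDB (SE 0.21, limma adjusted p = 0.103). Atf3 and Ppp1r15a were also above DMSO under BDB, by 1.04 and 0.85, with limma adjusted p of 0.117 and 0.197. For Ddit3 and Atf3 the BDB and DMSO arrays overlapped. Of the 18 genes 0 were called under BDB by limma. At an unadjusted p under 0.05, 4 were higher and 1 lower under BDB, where 5.51% and 10.8% of all genes were. By the same limit 0 were higher and 6 lower under MEHP (10% and 8.85% of all genes), with 0 called. Under DINCH 0 were higher and 10 lower (15.1% and 15.7%), under DOM 0 and 11 (23% and 24.3%), and under DOS 1 and 1 (3.44% and 2.9%).

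**Figure D5:**
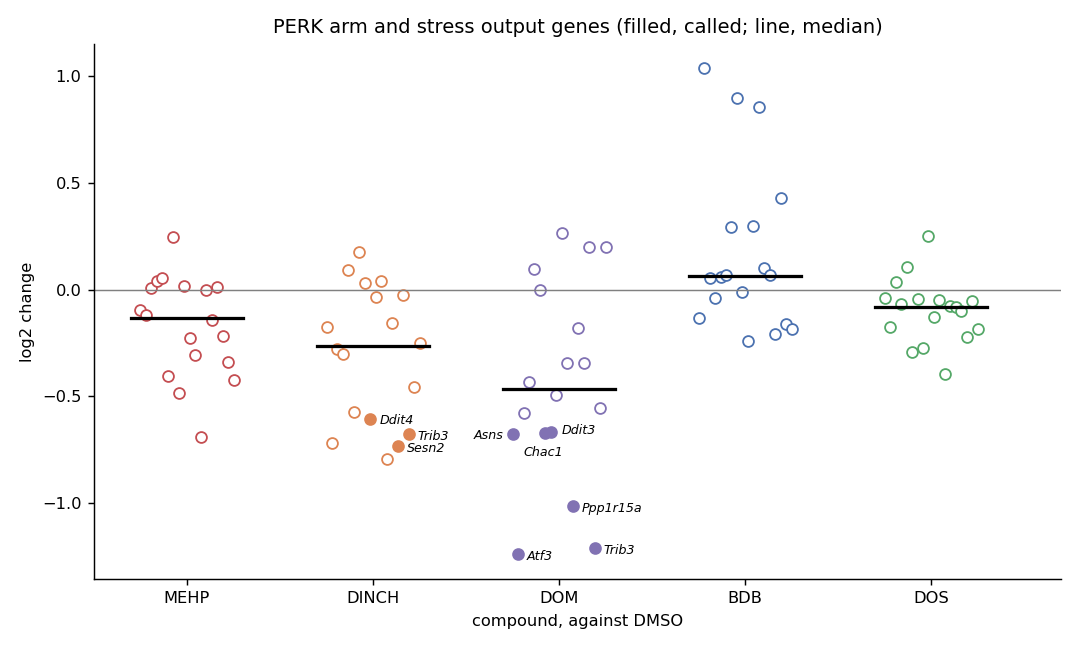
Log2 change against DMSO of the 18 genes of the PERK arm and its stress outputs for each compound; each point is a gene, filled and named where called, and the black line is the median. The medians are -0.46 for DOM and -0.26 for DINCH, and the 3 highest BDB points, Atf3, Ddit3 and Ppp1r15a, are not called.

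Among the 19 disulfide bond enzymes tested, calls went in both directions. Ero1a, the oxidase that reoxidises the disulfide isomerases, fell under DOM by 1.09 (SE 0.17, limma adjusted p = 0.00178) and under DINCH by 0.78 (SE 0.20, limma adjusted p = 0.0381), while the isomerase Pdia5 rose under DINCH by 0.71 (SE 0.16). These were the called genes of the 19, which was 10.5% under DINCH, where 6.97% of all genes were called. Under DOM it was 5.26%, where 18.6% of all genes were called.

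Of 29 other chaperones and co-chaperones tested, most were not called. Under DINCH 4 rose, where 3.79% of all genes did, namely Fkbp7 (0.78), Sil1 (0.63), Fkbp14 (0.61) and Creld1 (0.60), and under DOM 2 rose, Fkbp7 (0.66) and Fkbp14 (0.60), where 8.8% of all genes did. Under both compounds 0 of the 29 fell, and the median changes were 0.01 and 0.05. Fkbp7 and Fkbp14 are prolyl isomerases of the lumen, and Sil1 is the nucleotide exchange factor of BiP. Among genes of endoplasmic reticulum associated degradation, 3 of 32 rose under DOM (9.38%) and 1 of 31 under DINCH (3.23%), about the shares of all genes that rose. Fbxo2, a ubiquitin ligase subunit that binds glycoproteins, rose by 1.60 (SE 0.16) under DOM and 0.90 (SE 0.16) under DINCH, and the lectin Os9 rose by 0.59 under DOM. Ngly1, a glycan-removing enzyme, rose by 0.72 under DOM but was above background on only 2 of 4 DMSO arrays.

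Genes of protein entry and exit from the endoplasmic reticulum were called under DINCH and DOM only. Of 32 genes of translocation and signal cleavage, Srp54a, a subunit of the signal recognition particle, was the 1 called, at 0.64 under DOM. This was 3.12% of the list, where 8.8% of all genes rose. Of 38 genes of transport to the Golgi, 4 rose under DINCH (10.5%, where 3.79% of all genes did). Among them were Arfgap3 (0.80), Kdelr3, a receptor that returns chaperones to the endoplasmic reticulum (0.76), and the coatomer subunit Copb1 (0.65). Under DOM 1 rose, the Golgi protein Golgb1 (0.68), which was 2.63%, where 8.8% of all genes rose. The median change of the 38 was 0.04 under MEHP, 0.23 under DINCH, 0.13 under DOM, -0.19 under BDB and 0.04 under DOS. Under DINCH 27 of the 38 were above 0 and under BDB 7, where 49.9% and 42.8% of all genes were.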

How the data were processed

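Total RNA was labelled with Cy3 and hybridised to 1-colour Agilent arrays of 62976 spots, which the authors scanned and quantified with Feature Extraction. The deposited intensity values are processed signals, background-subtracted by that software, and the log2 values that the authors made by a percentile shift in GeneSpring served as an alternative. The DOS array that the study set aside is not analysed here. From the intensities, control and outlier spots were left out, spots of a probe averaged after taking log2 with a floor of 1, and the 75th percentile of each array subtracted.

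Probes well above background and at or over the 20th percentile on all arrays of at least 1 of the groups compared were tested with lmFit and eBayes (limma 3.58.1, R 4.3.3), the groups of each comparison alone, and p-values adjusted by Benjamini-Hochberg. Replicates are 4 separate cultures (3 for DOS), whose number limits the precision. The fits were tested on simulated data. The genes named beyond the members are up to 4 called genes of each list with the largest changes and no overlap with DMSO, the sensors Ern1, Atf6 and Eif2ak3 with Atf4 and Ddit3, and the 5 genes most like the members. The members and lists were chosen with earlier results of these data known. Same-numbered cultures deviated together for DINCH, BDB and DOS (r from 0.16 to 0.56 over all pairs) but not in every pair for MEHP and DOM. Alternatives were quantile and normexp normalization, other filters, slide or replicate as a block, 1 fit of all groups, a variance trend and leaving out each array.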

Additional observations from a re-analysis of the deposited data

Results flagged for a closer look

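In 2 of the 49 gene and group combinations with 4 arrays, 1 array lay far from the other 3 for the range of its group, as chance gives in about 1 in 20 groups. Xbp1 was at 6.09 on MEHP replicate 3, with 5.89 to 5.92 on the other MEHP arrays, a level equal to the highest DMSO array. Pdia4 was at 2.01 on BDB replicate 4, with 1.90 to 1.91 on the others, inside the range of DMSO.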

How the results depend on the processing

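The falls of Herpud1 and Hspa5 under DOM kept their direction in every alternative, and all but 1 kept the calls: the number of members called was 1 in place of 2 with quantile normalization, where Hspa5 changed by -0.45. Against DOS the count was 1 with quantile or normexp normalization and 0 with no filter on dim probes or without DOS replicate 4, so it ranged from 0 to 2 over arrays left out. For DINCH it was 1 with normexp, with all 6 groups in 1 fit and with a variance trend (Herpud1, lower), and from 0 to 1 over arrays left out. Over the 10 pairs of compounds 4 of the 100 differences were called with quantile normalization in place of 8. With normexp, 0 pathway list genes were called for MEHP in place of 1, 1 for BDB in place of 0, and 5 stress output genes for DINCH in place of 3. No scaling moved the median of all genes by as much as 0.1. Single members moved further: under DOM, quantile normalization took Hspa5 from -0.69 to -0.45 and Xbp1 from -0.07 to 0.11. The causes were not tested.

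With the replicate number as a block, the counts of called members remained 2 for DOM, 2 for DOM against DOS and 0 for the other compounds, and no call of a member changed with the pairing. Its only changes of sign were Pdia6 (-0.011) and Creld2 (-0.0063) under DOS, at -0.069 and -0.056 with slide as a block.

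Other signs turned only for changes that were not called and lay near 0. With quantile normalization these were Xbp1 under DINCH (0.020) and DOM (0.11), Calr under DOM (0.054), Hspa5 under BDB (-0.0047), and Hsp90b1 (0.011), Xbp1 (0.067) and Calr (0.078) for DOM against DOS. With normexp they were Xbp1 under DINCH (0.031) and DOM (4e-04), Hspa5 under BDB (-0.013), and Pdia6 (-0.0088) and Creld2 (-0.031) under DOS. The authors' values gave 0.0030 for Xbp1 under DINCH. Dimmer probes gave -0.063 for Pdia6 under DINCH and, for Dnajb9, -0.096 under DOM and -0.064 under DOS. Leaving out each array in turn, Xbp1 ranged from -0.032 to 0.077 under MEHP, -0.059 to 0.050 under DINCH, -0.13 to 0.0092 under DOM, -0.053 to 0.055 under BDB and -0.0099 to 0.11 under DOS. Pdia4 ranged from -0.032 to 0.089 under MEHP, -0.056 to 0.065 under DOM and -0.018 to 0.10 under BDB. Calr ranged from -0.12 to 0.026 under DOM, -0.069 to 0.0079 under DOS and -0.091 to 0.052 for DOM against DOS. The ranges were -0.038 to 0.085 for Sdf2l1 under MEHP, -0.030 to 0.067 for Hspa5 under BDB, and -0.10 to 0.15 for Pdia6 and -0.065 to 0.095 for Creld2 under DOS.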
